A study of Rattus norvegicus with 11 samples.

Results

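The transcription factors described here are 9 genes that set and keep the identity of islet endocrine cells, Nkx6-1, Nkx2-2, Neurod1, Pax6, Isl1, Foxa2, Hnf4a, Rfx6 and Insm1. They were looked up by single gene symbol in the gene-level table, where 15097 of 27342 probes carry 1 symbol and stand for 14324 genes. Of the 9, 7 were found, each with 1 probe, and 2 (Nkx2-2 and Insm1) were not analysed here. Islet RNA of Sprague-Dawley female rats was hybridised to 11 one-colour arrays. The daughters of fathers on a high-fat diet with 43% fat (HFD-father, 5 arrays) were set against daughters of fathers on chow with 9% fat (chow-father, 6 arrays). Mating was at 15 weeks of the fathers' age, with chow-eating females, and every daughter ate chow from weaning at 3 weeks until islets were taken at 13 weeks. Per the study's design text, the HFD-father daughters were glucose intolerant with a blunted early insulin response from 6 weeks, while weight and adiposity did not differ. Nothing in the labels says whether array numbers stand for single rats, litters or fathers, so p-values measure the spread between these samples, which may be technical.

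Islet endocrine cells arise from progenitors that pass through a transient Neurog3 stage, after which a network of homeodomain, basic helix-loop-helix, forkhead, winged-helix and nuclear receptor proteins switches on hormone genes. Many of these factors stay on in adult islets, where they sustain the insulin gene, glucose sensing and secretion, and bind each other's regulatory regions. Inherited defects in several of them, HNF4A, NEUROD1, PAX6 and RFX6 among them, cause or predispose to diabetes in people.

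Values are log2 signals normalized by the authors, and the number of arrays limits their precision. Array medians lay between 6.137 and 6.202, and pairs of arrays correlated over probes at 0.9869 to 0.995. The accession numbers fall into an earlier set of 8 arrays (4 HFD-father, 4 chow-father) and a later set of 3 (1 HFD-father, 2 chow-father). The means of the sets were equal to within 5.83e-05 in every probe, so values had been centred per set before deposit, and differences are also given within each set. Islet identity was checked on defining markers. Ins1 (insulin) lay between 14.23 and 14.30 in HFD-father arrays and between 14.18 and 14.34 in chow-father arrays, and Gcg (glucagon) between 13.94 and 14.11 in HFD-father and 13.90 and 14.13 in chow-father arrays. The acinar enzyme gene Cpa1 was also bright, at 13.96 to 14.19 in HFD-father and 13.48 to 14.19 in chow-father arrays, so exocrine RNA was present in the preparations.

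For none of the 7 transcription factors did the difference between the groups pass the test. The largest difference was that of Rfx6, -0.11 on the log2 scale, and the 95% intervals of the 7 differences ran from -0.29 to 0.19 in all. Limma called 0 of the 7 at an adjusted p under 0.05 (over all probes 0 of 27342, 0%, with 0.316 as the lowest adjusted p). Before adjustment 0 of the 7 had a p under 0.05, against a background of 9.35% of all probes. A two-sided exact permutation test with labels moved within the sets gave 0 of the 7 under 0.05. The 2 groups overlapped for all 7 genes, while 1.06% of all probes had groups that did not overlap. By mean, 5 genes were lower and 2 higher in HFD-father arrays, with a median difference of -0.026 beside -0.004 over all probes. With single replicates left out the median ran from -0.045 (HFD-father 5 left out) to 0.02 (chow-father 4 left out). It was 0.011 with HFD-father replicate 1 left out, and below 0 with any replicate but these last 2 left out. Because these are bulk samples, fewer cells of a type and less RNA per cell cannot be told apart.

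**Figure D1:**
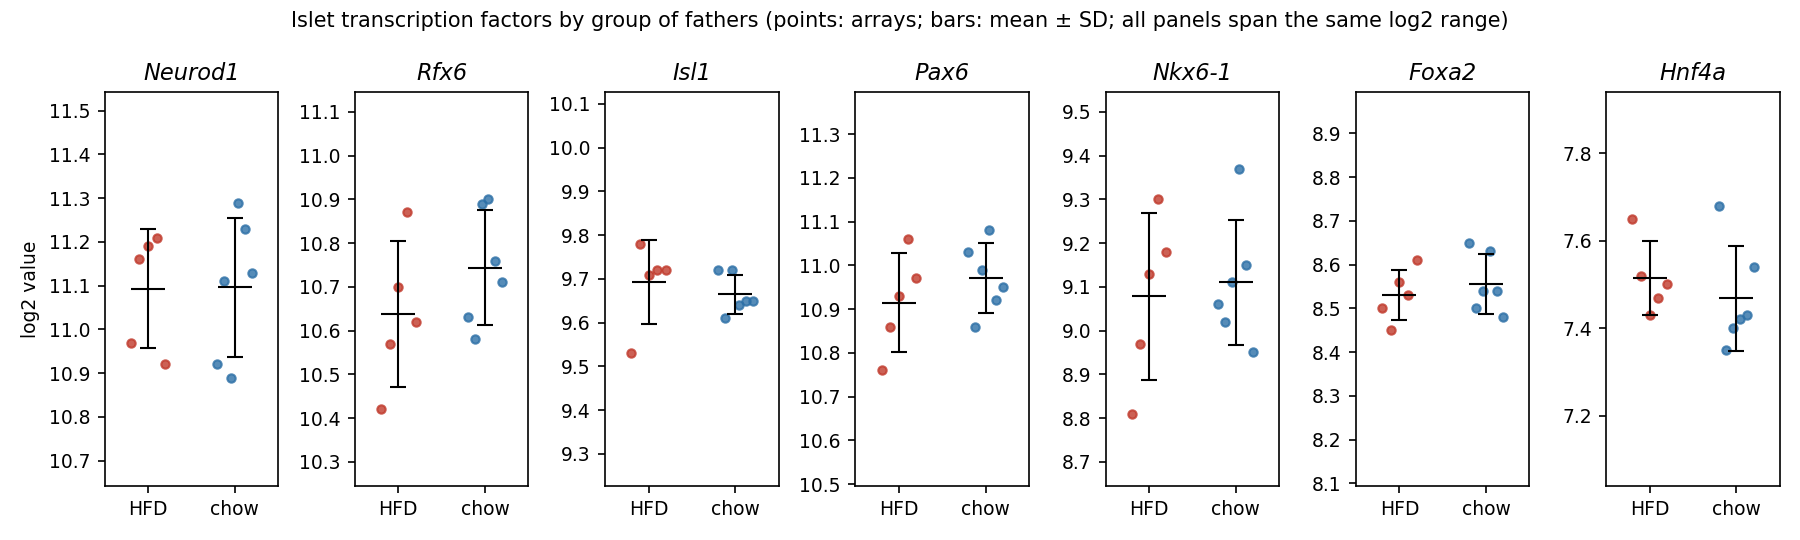
Log2 value (vertical axis) of 7 islet transcription factors in 5 HFD-father arrays (left, red) and 6 chow-father arrays (right, blue), with mean ± SD as black bars. Each panel spans the same log2 range around the gene's own mean, and in every panel the groups overlap.

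Neurod1 encodes a basic helix-loop-helix protein that acts after Neurog3 and activates the insulin gene through E-box sequences. Its values were 10.97, 11.16, 11.19, 11.21 and 10.92 in HFD-father arrays 1 to 5, against a lowest of 10.89, a median of 11.12 and a highest of 11.29 in chow-father arrays. Both groups had low and high arrays, and the means were nearly equal, 11.09 ± 0.136 (SD, n = 5) in HFD-father and 11.10 ± 0.159 (SD, n = 6) in chow-father arrays. The difference of -0.003 ± 0.085 (SE) had an interval from -0.19 to 0.18, or 0.878 to 1.13 times the chow-father level, and limma's adjusted p was 0.995. It had no settled sign, being 0.08 in the earlier set and -0.26 in the later one, and 0.035, 0.023 and 0.004 without chow-father replicates 4, 5 and 6, 0.027 with HFD-father replicate 1 left out and 0.04 with replicate 5 of that group left out, but -0.044 with chow-father replicate 3 left out.

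Rfx6 encodes a winged-helix factor that acts downstream of Neurog3 in islet development and keeps adult beta cells secreting insulin. It measured 10.42, 10.57, 10.70, 10.87 and 10.62 in HFD-father arrays 1 to 5, against a lowest of 10.58, a median of 10.73 and a highest of 10.90 in chow-father arrays. HFD-father 1 and 2 lay below every chow-father array, HFD-father 4 lay near the top of the chow-father range, and 4 of 5 HFD-father arrays were below the chow-father mean. The means were 10.64 ± 0.167 (SD, n = 5) in HFD-father and 10.74 ± 0.132 (SD, n = 6) in chow-father arrays. The difference of -0.11 ± 0.085 (SE), with an interval from -0.29 to 0.08 (0.817 to 1.05 times the chow-father level), did not pass (limma, adjusted p = 0.722; two-sided exact permutation p = 0.257). It was -0.11 within each set, and with single replicates left out it ran from -0.17 (HFD-father 4 left out) to -0.053 (HFD-father 1 left out).

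Isl1 encodes a LIM-homeodomain protein found in all hormone cell types of the islet and needed for their maturation. It read 9.53, 9.78, 9.71, 9.72 and 9.72 in HFD-father arrays 1 to 5, against a lowest of 9.61, a median of 9.65 and a highest of 9.72 in chow-father arrays. Here 4 of 5 HFD-father arrays lay above the chow-father mean and HFD-father 1 lay below every other array. The difference was 0.03 ± 0.053 (SE; limma, adjusted p = 0.897), with an interval from -0.09 to 0.14. With single replicates left out it ran from 0.006 (HFD-father 2 left out) to 0.069 (HFD-father 1 left out), with limma's adjusted p between 0.569 and 0.984. The probe varied little, with a within-group SD of 0.071 that 9.84% of probes undercut.

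Pax6, a protein with a paired domain and a homeodomain, activates insulin, glucagon and somatostatin genes. It gave 10.76, 10.86, 10.93, 11.06 and 10.97 in HFD-father arrays 1 to 5, against a lowest of 10.86, a median of 10.97 and a highest of 11.08 in chow-father arrays. HFD-father 1 lay below the chow-father range, HFD-father 2 at its lower edge and the other 3 inside it. The difference of -0.06 ± 0.063 (SE) had an interval from -0.19 to 0.08 and limma's adjusted p was 0.81. It was -0.09 in the earlier set and 0.04 in the later one, and ran from -0.092 to -0.017 with HFD-father 4 or HFD-father 1 left out.

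Nkx6-1 encodes a homeodomain repressor that in the adult pancreas marks beta cells and holds down the programmes of other islet cells. It had 8.81, 8.97, 9.13, 9.30 and 9.18 in HFD-father arrays 1 to 5, against a lowest of 8.95, a median of 9.08 and a highest of 9.37 in chow-father arrays. Its spread was the widest of the 7 genes, 0.551 from HFD-father 1 to chow-father 4. Within groups the SD was 0.19 in HFD-father (n = 5) and 0.143 in chow-father arrays (n = 6). The difference was -0.03 ± 0.092 (SE), with an interval from -0.23 to 0.17 (limma, adjusted p = 0.942). It was -0.09 in the earlier set and 0.13 in the later one, -0.087 with HFD-father replicate 4 left out, 0.034 with HFD-father replicate 1 left out and 0.02 with chow-father replicate 4 left out, so its direction turned with single arrays.

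Foxa2 encodes a forkhead protein that opens chromatin in the endoderm and is also made in exocrine pancreas and liver. It came to 8.50, 8.45, 8.56, 8.53 and 8.61 in HFD-father arrays 1 to 5, against a lowest of 8.48, a median of 8.54 and a highest of 8.65 in chow-father arrays. This was the narrowest range of the 7 genes, 0.196 over all arrays, and 6.31% of probes had a smaller within-group SD. The difference was -0.03 ± 0.051 (SE; limma, adjusted p = 0.905), and its interval from -0.14 to 0.08 spans 0.91 to 1.06 times the chow-father level. It was -0.07 in the earlier set and 0.09 in the later one, and ran from -0.045 to -0.006 with HFD-father 5 or chow-father 1 left out.

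Hnf4a encodes a nuclear receptor of liver, gut, kidney and pancreas that regulates metabolic genes and, in beta cells, insulin secretion. It stood at 7.65, 7.52, 7.43, 7.47 and 7.50 in HFD-father arrays 1 to 5, against a lowest of 7.35, a median of 7.42 and a highest of 7.68 in chow-father arrays. HFD-father 1 and chow-father 1 stood above the other arrays. The difference was 0.05 ± 0.066 (SE; limma, adjusted p = 0.86), with an interval from -0.10 to 0.19. It was 0.06 in the earlier set and 0.01 in the later one, and with single replicates left out it ran from 0.011 (HFD-father 1 left out) to 0.088 (chow-father 1 left out).

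**Figure D2:**
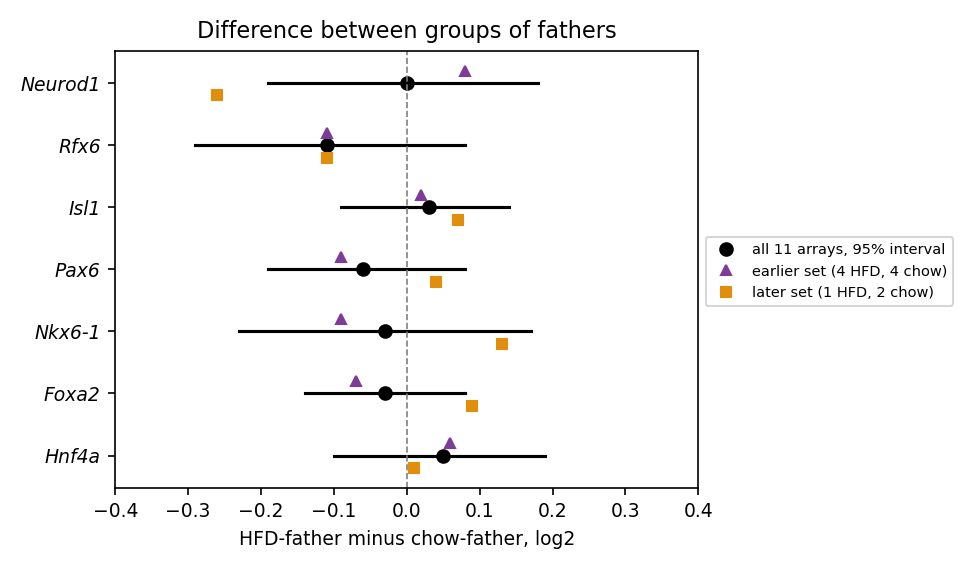
Log2 difference between HFD-father and chow-father means (HFD minus chow, horizontal axis) for the 7 genes, as the value over all 11 arrays with its 95% interval (black) and as values within the earlier set (purple triangles) and the later set (orange squares). All 7 intervals include 0, and for Neurod1, Pax6, Nkx6-1 and Foxa2 the sets lie on opposite sides of 0.

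The Hnf4a value does not say which of the gene's starts was used. The gene is known in mouse and human for an upstream promoter (P2) used in islets and a downstream one (P1) used in liver. RefSeq's annotation of the rat build GRCr8 gives 2 starts, 35616 bases apart on the plus strand, and the 250 bases before each are shown because the single array probe gives 1 value for the gene. Capitals mark GTTA and TTAA with any 4 letters between them on either strand, a loose spelling of the site of HNF1 proteins that was chosen after both windows were read. It stands in 0.684% of 33469 promoter windows of that length, and the match begins 71 bases before the upstream start and 89 bases before the downstream one. The upstream window is chr3:172605970-172606219 and the downstream window chr3:172641586-172641835.
Hnf4a upstream: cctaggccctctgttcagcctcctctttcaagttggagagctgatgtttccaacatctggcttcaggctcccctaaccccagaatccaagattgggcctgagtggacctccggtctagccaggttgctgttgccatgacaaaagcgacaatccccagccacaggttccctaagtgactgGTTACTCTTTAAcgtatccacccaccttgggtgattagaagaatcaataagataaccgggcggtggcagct
Hnf4a downstream: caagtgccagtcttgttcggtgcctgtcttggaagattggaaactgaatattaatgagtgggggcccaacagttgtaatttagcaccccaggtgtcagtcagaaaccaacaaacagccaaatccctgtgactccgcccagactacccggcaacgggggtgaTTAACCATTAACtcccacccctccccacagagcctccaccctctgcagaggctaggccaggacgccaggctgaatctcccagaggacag

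The same arrays held the extremes of 3 of the factors. Nkx6-1, Pax6 and Rfx6 each had their lowest value in HFD-father 1 and their highest in chow-father 4. Over all 7 genes, 4 were lowest in HFD-father 1 and 4 highest in chow-father 4. How many of all probes had their extremes in these arrays was not counted. Among 21 pairs of genes over the 11 arrays, 14 had a positive correlation and 3 passed a permutation test after Benjamini-Hochberg adjustment over the 21. The share of pairs of other genes that would do so was not counted, so these counts are not shown to be particular to these factors. Nkx6-1 and Pax6 gave a Pearson r of 0.84 (permutation p = 0.0015, adjusted p = 0.0154) and a Spearman rho of 0.72 (permutation p = 0.0161, adjusted p = 0.169). Pax6 and Rfx6 gave an r of 0.83 (permutation p = 0.00183, adjusted p = 0.0154) and a rho of 0.78 (permutation p = 0.00664, adjusted p = 0.139). Nkx6-1 and Rfx6 gave an r of 0.81 (permutation p = 0.0022, adjusted p = 0.0154) and a rho of 0.68 (permutation p = 0.0251, adjusted p = 0.176). No pair passed by rho after adjustment. Without HFD-father 1 and chow-father 4, the 2 arrays farthest from the median, r was 0.62, 0.62 and 0.59 for these pairs (exact permutation p = 0.0713, 0.0799 and 0.0974, n = 9). The calls therefore did not hold without those arrays. Leaving out the extremes also narrows the range and the number of arrays, so this cannot tell whether the relations rest on them. Within the earlier set of 8 arrays r was 0.90, 0.88 and 0.91, while the later set of 3 is too small for a value. The earlier set holds both HFD-father 1 and chow-father 4, so its r is no check apart from those arrays. At the other end, Rfx6 and Hnf4a gave an r of -0.54 (permutation p = 0.0836, adjusted p = 0.293), with a rho of -0.47 (permutation p = 0.144, adjusted p = 0.43) and an r of -0.22 without chow-father 1 and HFD-father 1.

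**Figure D3:**
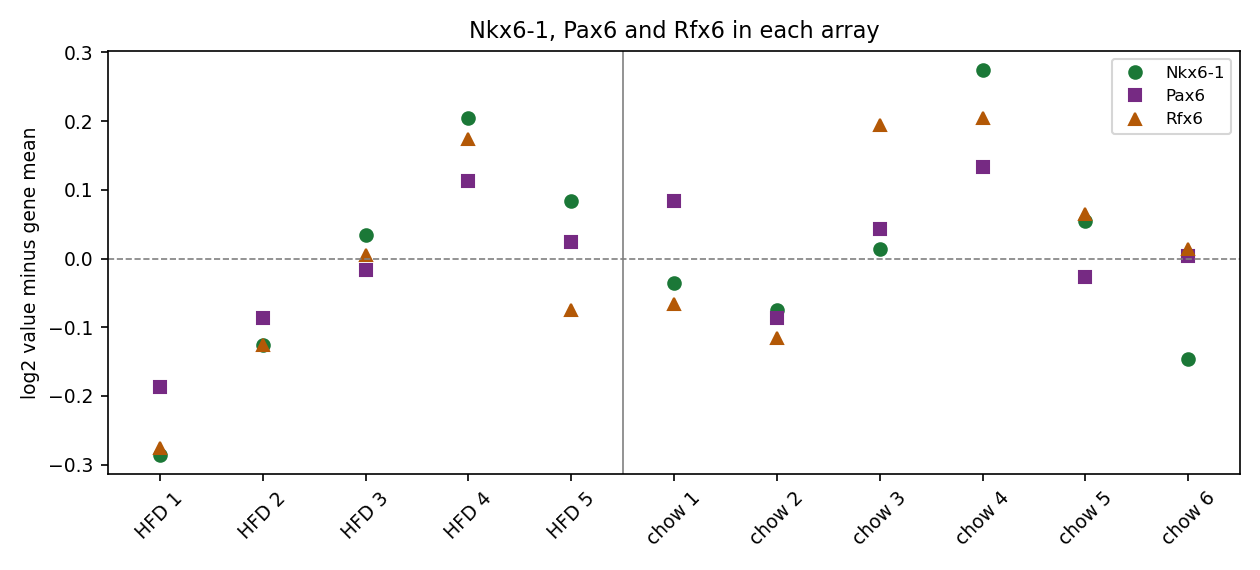
Log2 value minus the gene's mean (vertical axis) of Nkx6-1 (green circles), Pax6 (purple squares) and Rfx6 (brown triangles) in each array, HFD-father arrays left of the line and chow-father arrays right of it. All 3 are lowest in HFD-father 1 and highest in chow-father 4.

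The promoter windows of Nkx6-1 and Pax6, the pair with the highest r, are shown for comparison. RefSeq's table held windows for 7 of the 9 genes, and Rfx6 and Insm1 had none in it. Capitals mark TAAT on either strand, the core letters bound by many homeodomain proteins, which 57.0% of all windows of 250 bases hold. The Nkx6-1 window, chr14:8273988-8274237 on the plus strand of GRCr8, holds 1 match. The Pax6 window, chr3:112590346-112590595 on the plus strand, holds 0.
Nkx6-1: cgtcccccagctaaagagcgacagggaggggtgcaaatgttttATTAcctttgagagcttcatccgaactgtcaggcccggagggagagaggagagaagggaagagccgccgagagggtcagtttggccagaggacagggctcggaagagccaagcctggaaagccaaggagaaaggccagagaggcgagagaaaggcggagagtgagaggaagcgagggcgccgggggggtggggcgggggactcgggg
Pax6: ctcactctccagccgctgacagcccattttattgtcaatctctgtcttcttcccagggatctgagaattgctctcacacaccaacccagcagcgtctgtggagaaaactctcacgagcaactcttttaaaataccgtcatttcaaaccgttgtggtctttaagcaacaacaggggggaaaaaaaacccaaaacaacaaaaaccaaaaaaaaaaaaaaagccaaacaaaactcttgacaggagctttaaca

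Acinar RNA varied over the same arrays. The mean of 27 measured acinar markers, each set to 0 at its own mean, ran from -0.25 to 0.60 in HFD-father arrays and from -1.23 to 0.63 in chow-father arrays. It was lowest in chow-father 4, where Nkx6-1, Pax6 and Rfx6 were highest, and 0.60 in HFD-father 1, where they were lowest. Not every other array followed this order. Within chow-father arrays alone, r with the acinar mean was -0.86 for Nkx6-1, -0.6 for Pax6 and -0.91 for Rfx6. Within HFD-father arrays alone it was -0.51, -0.48 and -0.38. The acinar mean was highest in chow-father 1 (0.63), where Pax6 was 11.03, above its chow-father median of 10.97. Nkx6-1 was 9.06 and Rfx6 10.63 there, below their chow-father medians of 9.08 and 10.73. In HFD-father 4 it was 0.23, with Nkx6-1 at 9.30, Pax6 at 11.06 and Rfx6 at 10.87. None of the 7 relations with the acinar mean passed a permutation test over 11 arrays after adjustment. For Nkx6-1, r was -0.67 (permutation p = 0.0234, adjusted p = 0.0819) and rho -0.53 (permutation p = 0.099, adjusted p = 0.231). For Rfx6, r was -0.66 (permutation p = 0.023, adjusted p = 0.0819) and rho -0.55 (permutation p = 0.0862, adjusted p = 0.231). Hnf4a, which acinar cells also make, had the opposite sign, with an r of 0.54 (permutation p = 0.087, adjusted p = 0.196) and a rho of 0.54 (permutation p = 0.0948, adjusted p = 0.231). Without chow-father 1 and 4, the arrays farthest from the median acinar mean, r was -0.50 for Nkx6-1, -0.57 for Rfx6 and 0.41 for Hnf4a. Within the earlier set, which holds both of those arrays, it was -0.67, -0.71 and 0.55. For Pax6, Neurod1, Isl1 and Foxa2, r over all arrays was -0.51, -0.38, -0.19 and -0.32. Without chow-father 1 and 4 it was -0.56, 0.17, -0.75 and -0.50 for these genes, so the value for Neurod1 changed sign. With the acinar mean as a covariate, the group difference was -0.083 for Rfx6 (limma, adjusted p = 0.684), -0.005 for Nkx6-1 (adjusted p = 0.991) and 0.032 for Hnf4a (adjusted p = 0.872).

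**Figure D4:**
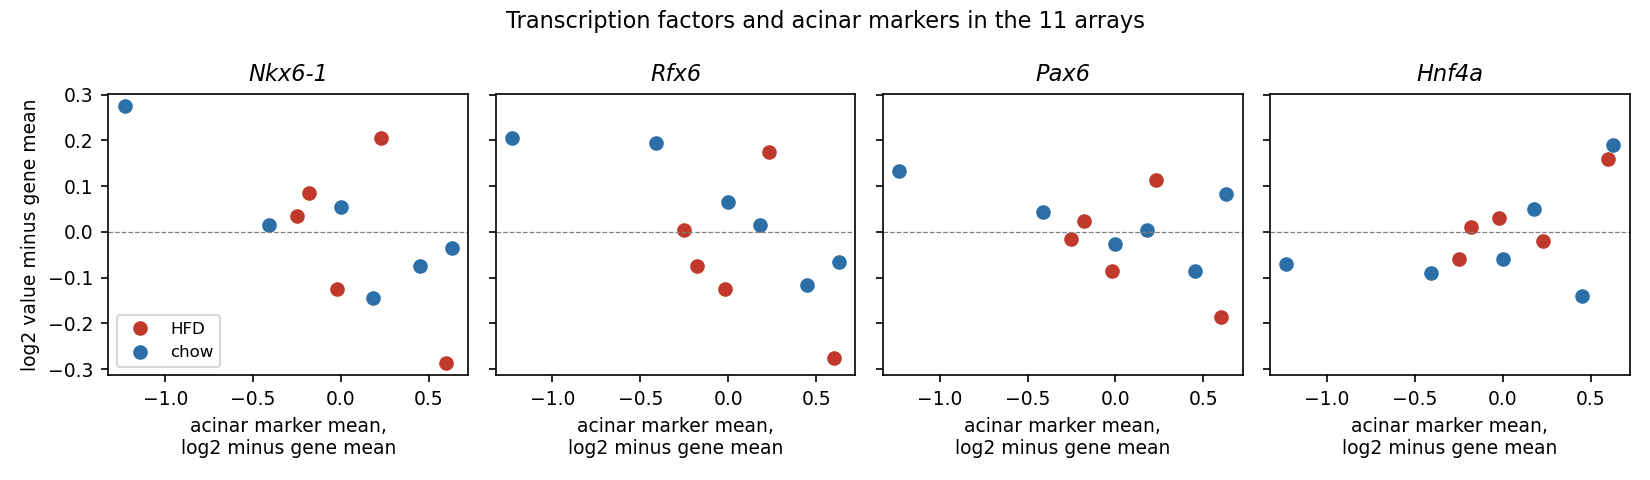
Log2 value minus gene mean (vertical axis) of Nkx6-1, Rfx6, Pax6 and Hnf4a against the acinar marker mean (horizontal axis, log2 minus gene mean) in 5 HFD-father arrays (red) and 6 chow-father arrays (blue). The array farthest left, at -1.23, is chow-father 4, and no relation passed after adjustment.

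HFD-father 1 also held the highest or lowest mean of several other marker lists. The lymphocyte marker mean (10 genes) was 0.96 there and otherwise between -0.19 and 0.07 in HFD-father arrays, and ran from -0.19 to 0.02 in chow-father arrays. The ductal mean (6 genes) ran from -0.53 to 0.70 in HFD-father and from -0.86 to 0.58 in chow-father arrays, highest in HFD-father 1 and lowest in chow-father 4. The endothelial mean (10 genes) ran from -0.11 to 0.27 in HFD-father and from -0.18 to 0.11 in chow-father arrays, and the macrophage mean (12 genes) from -0.27 to 0.37 in HFD-father and from -0.33 to 0.35 in chow-father arrays, both highest in HFD-father 1. The beta cell marker mean (10 genes) ran from -0.20 to 0.12 in HFD-father and from -0.10 to 0.15 in chow-father arrays, and was lowest in HFD-father 1. The part of these cell types in the transcription factor values was not tested beyond the acinar covariate.

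Away from the 7 genes, 3 genes followed the mean of their standardised values most closely among 14317 others, over 11 arrays. They were Mapk1ip1l (r = 0.946), Csrp2, a LIM domain protein gene (r = 0.944), and Sugp2 (r = 0.94). They were picked as the highest of that many, so the r values are a description only. Their own group differences were -0.03, -0.01 and -0.03.

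Among other endocrine pancreas factors, 33 of 43 listed genes were measured, and limma called 0 of them after adjustment, with a median difference of -0.02. Before adjustment, 1 had a p under 0.05 with a higher and 2 with a lower mean in HFD-father arrays, where 2.96% and 6.39% of all probes did. Hhex, a homeodomain factor of delta cells, averaged 5.47 ± 0.184 in HFD-father and 5.14 ± 0.353 in chow-father arrays (SD, n = 5 and 6; limma, adjusted p = 0.533). Lmx1a, a LIM-homeodomain gene, averaged 5.73 in HFD-father and 5.89 in chow-father arrays, a difference of -0.16 (limma, adjusted p = 0.523). Rfx2, a relative of Rfx6, differed by -0.13 (limma, adjusted p = 0.534). The means of Hhex and Lmx1a lay under the array medians of 6.137 to 6.202.

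Partners and co-regulators, such as the Ldb1 complex that works with Isl1 and the Groucho proteins recruited by Nkx factors, were measured for 33 of 38 genes. Limma called 0 after adjustment, and the median difference was 0.00. Before adjustment, 0 had a p under 0.05 with a higher and 2 with a lower mean, beside 2.96% and 6.39% of all probes. Ssbp4, of the family of single-stranded DNA binding proteins that stabilise Ldb1 complexes, averaged 8.86 ± 0.066 in HFD-father and 8.98 ± 0.056 in chow-father arrays (SD, n = 5 and 6; limma, adjusted p = 0.493). Cbfa2t3, a corepressor, differed by -0.16 (adjusted p = 0.528) and Nkap by 0.13 (adjusted p = 0.534).

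Inhibitors of helix-loop-helix factors and the Notch branch, which holds progenitors back from the endocrine fate, were measured for all 16 genes, with 0 called by limma after adjustment and a median of 0.04. Before adjustment, 1 had a p under 0.05 with a higher and 1 with a lower mean, beside the same 2.96% and 6.39% of all probes. Hey1, a Notch target, averaged 6.17 ± 0.068 in HFD-father and 5.97 ± 0.130 in chow-father arrays, a difference of 0.20 ± 0.07 (SE; limma, adjusted p = 0.449). Hes5, another Notch target, averaged 6.89 ± 0.152 in HFD-father and 7.08 ± 0.107 in chow-father arrays (SD, n = 5 and 6), a difference of -0.20 (adjusted p = 0.49). Rbpj, the DNA-binding partner of Notch, differed by 0.15 (adjusted p = 0.537). The mean of the 16 genes was highest in HFD-father 1, at 0.21, and lowest in chow-father 4, at -0.19, the same arrays that bound the range of Nkx6-1, Pax6 and Rfx6. This was not particular to the inhibitors. The mean of the 11 measured acinar and ductal factors had the same extremes, 0.47 in HFD-father 1 and -0.61 in chow-father 4.

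Genes that these factors are known to regulate in islet cells were measured for 35 of 42, with 0 called by limma after adjustment and a median of -0.01. Before adjustment, 0 had a p under 0.05 with a higher mean and 1 with a lower one, the ghrelin gene Ghrl, which differed by -0.41 (adjusted p = 0.316) and is raised in mice that lack Nkx2-2. Of all probes, 6.39% had such a p with a lower mean. Ghrl averaged 5.86 in HFD-father and 6.26 in chow-father arrays, near the array medians. Sytl4, a granule docking protein gene, differed by 0.11 (adjusted p = 0.678) and Gjd2, the gap junction gene of beta cells, by -0.16 (adjusted p = 0.719). The mean of the 35 genes was lowest in HFD-father 1 (-0.19) and highest in chow-father 4 (0.13). Factors of acinar and ductal cells, 11 of 15 measured, had a median of 0.04, with 0 called by limma after adjustment. Before adjustment, 0 of them had a limma p under 0.05 in either direction, beside 9.35% of all probes. Klf5 differed by -0.12 (adjusted p = 0.739), Bhlha15, the acinar secretory factor, by 0.09 (adjusted p = 0.875) and Grhl2 by -0.09 (adjusted p = 0.881).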

How the data were processed

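Gene-level values of 11 one-colour arrays of rat islet RNA were used. The deposited table holds log2 values that the authors normalized between arrays, a scale found from its range and near-equal quartiles. RMA and MAS5 are named per the submitters' processing notes, with no role or order, and background correction is not given in the sources used here. An exon-level table was not used here, since its features are not paired with genes.

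Symbols came from the platform table: 15097 probes had 1 gene symbol, 323 had several and 11922 were not listed. Of the former, 15067 were updated through Entrez numbers to RefSeq's GRCr8 annotation. The probe of highest mean stood for each gene. HFD-father arrays were set against chow-father arrays by limma 3.58.1 in R 4.3.3 (eBayes after lmFit, no covariate, two-sided), Benjamini-Hochberg adjusted over 27342 probes with a threshold of 0.05. This fit left out the accession set, although values had been centred per set, so its intervals are somewhat narrow. With the set as a block the SE was larger for every measured factor, such as 0.0904 against 0.0848 for Rfx6 and 0.0984 against 0.0925 for Nkx6-1. The exact permutation test used 210 splits within sets (smallest p = 0.00476), and correlations used 100000 random permutations. On simulated data for this comparison, with 27342 probes centred per set, limma recovered 70% of 100 probes changed by 0.5 and 98% of 100 changed by 1, with 13 false calls. The simulated noise was drawn independently for each probe, so these shares need not hold for the deposited values. Genes and lists were chosen with earlier results of these data known. Named genes were all 9 factors, the 3 most alike in pattern, 3 of lowest p per list, and defining markers, of which Pecam1 was not analysed here. Alternatives are described in the closing section. Python 3.11.15 and matplotlib 3.10.9 drew the figures.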

Additional observations from a re-analysis of the deposited data

Results flagged for a closer look

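Isl1 in HFD-father replicate 1, at 9.53, lay apart from the other 4 HFD-father arrays, the nearest of which was at 9.71. The gap was 0.712 of the group's range, just above Dixon's critical value of 0.71 for 5 samples. It was the 1 flag among 18 groups of values examined, and chance flags about 1 in 20. The same array had the highest lymphocyte marker mean, at 0.96, and the lowest beta cell marker mean, at -0.20. Their part in the Isl1 value was not tested.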

How the results depend on the processing

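Limma called 0 probes under every alternative run: the accession set or the replicate block in the fit, the earlier set alone, quantile normalization, median centring, dim probes (mean under 5) removed, the acinar covariate, array weights, the mean of a gene's probes, each replicate left out, and HFD-father replicate 1 with chow-father replicate 4 left out, the last chosen after seeing the data. The number of probes at an unadjusted p under 0.05 was 2556, and 3541 without those 2 arrays, 1352 in the earlier set and 1561 without HFD-father replicate 5. No factor passed under any of them. Rfx6, Isl1 and Hnf4a kept their sign throughout. Foxa2 turned to 0.094 in the later set and 0.001 after median centring, with -0.045 to -0.006 over single replicates left out, and Pax6 to 0.041 in the later set and 0.005 without both arrays, with -0.092 to -0.017 over single replicates left out. Nkx6-1 turned to 0.003 with array weights, 0.13 in the later set and 0.085 without both arrays, and ran from -0.087 to 0.034 with single replicates left out. Neurod1 turned to 0.011 with the acinar covariate, 0.082 in the earlier set, 0.023 after median centring and 0.065 without both arrays, and ran from -0.044 to 0.04 with single replicates left out. The causes of these turns were not tested. With the replicate block Neurod1 was 0.004, Rfx6 -0.11 (limma, adjusted p = 0.723) and 1972 probes had an unadjusted p under 0.05, against 2556 without it. Deviations of same-numbered arrays from their group means correlated at -0.318 to 0.33. No test was run on these values, so they do not settle whether the numbers pair the arrays. Signal over background was not given, so dim probes could not be set against it.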
